A study of Mus musculus with 52 samples.

Results

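The mouse mitochondrial genome carries 37 genes, and all 37 had a row, with a symbol that starts with mt-, among the 55291 genes of the count table. They comprise 13 protein genes, 2 rRNA genes (mt-Rnr1 and mt-Rnr2) and 22 tRNA genes, and they were chosen by symbol alone, without regard to their counts. All 13 protein genes, both rRNA genes and 13 of the 22 tRNA genes passed the low-count filter and could be tested. The tRNA genes mt-Ta, mt-Td, mt-Tf, mt-Tg, mt-Tk, mt-Tr, mt-Ts1, mt-Tt and mt-Tv did not pass it, and 4 of them (mt-Td, mt-Tg, mt-Tk and mt-Tr) were at 0 counts throughout the 52 libraries. Of these, mt-Td, mt-Tg and mt-Tr lie between protein genes that have a nuclear copy, described below. The gene mt-Tk lies between mt-Co2, which has a copy, and mt-Atp8, for which no copy was compared. The bases of these 4 tRNA genes were not compared with the nucleus, and the reason for their 0 counts was not tested.

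Mitochondrial DNA is a circular genome present in many copies per cell, and it is transcribed from both strands as long precursors. Excision of the tRNAs from these precursors releases the mRNAs and rRNAs, most of the mRNAs then receive a short poly(A) tail, and each mature RNA has its own stability. The proteins are core subunits of the respiratory chain: mt-Nd1, mt-Nd2, mt-Nd3, mt-Nd4, mt-Nd4l, mt-Nd5 and mt-Nd6 belong to complex I, mt-Cytb to complex III, mt-Co1, mt-Co2 and mt-Co3 to complex IV, and mt-Atp6 and mt-Atp8 to ATP synthase. All other subunits, and every factor that transcribes or processes mitochondrial RNA, are encoded in the nucleus. Preimplantation embryos live on the mitochondria of the egg and begin to replicate mitochondrial DNA only around implantation, which makes these transcripts of interest in embryo models. In the annotation 12 protein genes, both rRNAs and 14 tRNAs lie on the plus strand, whose RNAs come from the heavy-strand promoter. Only mt-Nd6 and 8 tRNAs lie on the minus strand.

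The libraries were bulk poly(A) RNA-seq of mouse stem cells and of embryo-like aggregates grown from them, all labelled WT. All groups but those made from mESCs came from 1 line of extended pluripotent stem cells (EPSCs), mc6-1/Mu-mClover3-10#. The groups were untreated EPSCs in LCDM medium, EPSCs given totipotency medium for 2 days (S1), and EPSCs given CHIR-99021 for 2 days alone or together with Elvitegravir, PD0325901 or CD1530. S1 cells were also kept for 25 or 38 passages (P25 and P38). S2 are aggregates of S1 cells after 1 day in 4C-64C medium, and S3 are S2 aggregates after 1 more day in that medium. Each was also made without 8Br-cAMP, Birabresib, CHIR-99021 or CD1530. S5 are day 1 S4 structures after 3 days in peri-implantation medium on Aggrewell, also made without Activin A, BMP4, FGF4 or XAV 939. Mouse embryonic stem cells (mESCs) of the line 2i-0606-td-ES were grown in 2i/L or in totipotency medium for 2 days. Every group has 2 libraries except untreated EPSCs, whose 4 libraries were split into libraries 1 and 2 and libraries 3 and 4, as explained below, so every ± is an SD of 2 libraries. CHIR-99021, an inhibitor of the kinase GSK3, is written CHIR from here on.

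Total counts ran from 16.6 M (mega) to 108 M per library, and 21016 to 27652 genes had a count. The share of even counts among genes was 66.8 to 80.5% in 46 libraries and 40.7 to 42% in the other 6 (EPSC libraries 3 and 4, P25 and P38), so in the 46 both mates of most read pairs had each been counted. Comparisons of mESCs with EPSC libraries 3 and 4, and of S2 with P25, cross these 2 ways of counting. The pluripotency gene Pou5f1 was, as a group mean, between 10.5 and 888 CPM (TMM-scaled counts relative to 1 M counts of the library) in untreated EPSCs, S1, P25, mESCs, mESCs in totipotency medium, S2, S3 and S5. Zscan4c, a marker of the 2-cell state, was at 0 in EPSC libraries 1 and 2 and at 446 CPM in S1. The summed CPM of 4 feeder fibroblast genes (Col1a1, Col1a2, Col3a1 and Thy1) ranged from 28.1 to 2119 between libraries and was highest in mESCs.

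Part of the mitochondrial sequence is shared with the nucleus. A stretch of mouse chromosome 1 (chr1:24611535-24616197 in mm10, minus strand) holds 7 annotated copies of mitochondrial genes, of which 5 are identical to the mitochondrial sequence over the bases compared. Reads of 100 bases, the labelled read length, that fall wholly in such a copy match both places. The copies hold 97.6 to 99.9% of the 100-base windows of mt-Co2, mt-Atp6, mt-Co3, mt-Nd3 and mt-Nd4l, 60.8% of those of mt-Nd4 and 26.3% of those of mt-Co1. The sequences below show how close the copies are. The first 60 bases of mt-Co2 (chrM:7013-7072, plus strand) and of its copy Gm28661 (chr1:24615506-24615565, minus strand) have no difference.
mt-Co2: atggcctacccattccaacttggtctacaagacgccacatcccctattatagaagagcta
Gm28661: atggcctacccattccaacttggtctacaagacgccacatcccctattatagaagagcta
The copy of mt-Nd3 (chrM:9459-9518, plus strand), Gm28438 (chr1:24613060-24613119, minus strand), differs by the 1 base in capitals.
mt-Nd3: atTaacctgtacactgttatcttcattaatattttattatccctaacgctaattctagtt
Gm28438: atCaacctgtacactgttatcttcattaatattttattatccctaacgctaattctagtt
The copy of mt-Co1, Gm29216, covers only the last 492 of its 1545 bases, and the 6 differences, in capitals, all lie at its start (chrM:6381-6440, plus strand, and chr1:24616138-24616197, minus strand).
mt-Co1: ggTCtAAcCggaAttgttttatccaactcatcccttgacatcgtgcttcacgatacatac
Gm29216: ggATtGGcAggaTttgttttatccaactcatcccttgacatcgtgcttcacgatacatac
The copy of mt-Nd4, Gm28439, ends after 876 of 1378 bases (chr1:24611535-24611574, minus strand), and the bases of mt-Nd4 beyond that end are in capitals (chrM:11003-11082, plus strand).
mt-Nd4: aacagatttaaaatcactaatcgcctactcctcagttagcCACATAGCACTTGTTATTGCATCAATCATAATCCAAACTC
Gm28439: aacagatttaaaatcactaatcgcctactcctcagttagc

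The protein genes differed widely in their counts. The protein genes mt-Nd1, mt-Nd2, mt-Co1, mt-Nd4, mt-Nd5, mt-Nd6 and mt-Cytb had at least 100 CPM in all 52 libraries, and these 7 are called well counted below, a choice made after the counts were seen. The other 6 protein genes had medians of 0.0788 to 2.71 CPM. For 5 of these 6 nearly the whole gene is held by a nuclear copy, and for the sixth, mt-Atp8, no annotated copy was compared. It lies between mt-Co2 and mt-Atp6, and its last 43 bases (chrM:7927-7969) also belong to mt-Atp6. The copy of mt-Atp6 is identical over the bases compared. The copies themselves were also low, with a summed level of 19.7 to 84.2 CPM in a library and at most 55.3 CPM for any 1 of them. The sources used here do not say how reads with several matches were treated, and whether the copies account for the low counts was not tested. Levels of mt-Co2, mt-Atp6, mt-Co3, mt-Nd3 and mt-Nd4l, and part of those of mt-Nd4, mt-Co1 and mt-Atp8, are therefore uncertain.

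Over the 52 libraries the level of mt-Co1, the catalytic core of complex IV, was 3979 CPM at the lowest, 9337 at the median and 16350 at the highest. That of mt-Cytb, of complex III, was 703, 3092 and 4461 CPM. Among the complex I genes, mt-Nd1 was at 827, 2858 and 4371 CPM. The values for mt-Nd5 were 738, 2030 and 3158 CPM, and for mt-Nd2 284, 1788 and 2824. For mt-Nd4 they were 208, 1295 and 2219, and for mt-Nd6 158, 374 and 586. The lowest library of mt-Nd1, mt-Nd2, mt-Co1, mt-Nd4 and mt-Nd5 was an S3 library, that of mt-Nd6 was EPSC library 1 and that of mt-Cytb was mESC library 2.

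Per length, on the scale of CPM per kb of whole gene, the order in S2 was mt-Co1 at 9065, mt-Nd1 at 4280, mt-Cytb at 3499, mt-Nd2 at 2253, mt-Nd5 at 1509, mt-Nd4 at 1397 and mt-Nd6 at 888. If all its counts came from the 502 bases of mt-Nd4 outside the copy, its level in S2 would be 3835 CPM per kb, so its place in the order depends on where shared reads went. In EPSC libraries 1 and 2 mt-Co1 was at 4132 CPM per kb, above mt-Nd1 at 3270 and mt-Cytb at 3257, which stood level with each other. If all its counts came from the 1066 bases outside its copy, mt-Co1 would be at 5989 CPM per kb there. In mESCs mt-Co1 was at 8078 CPM per kb and mt-Cytb at 617.

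**Figure D1:**
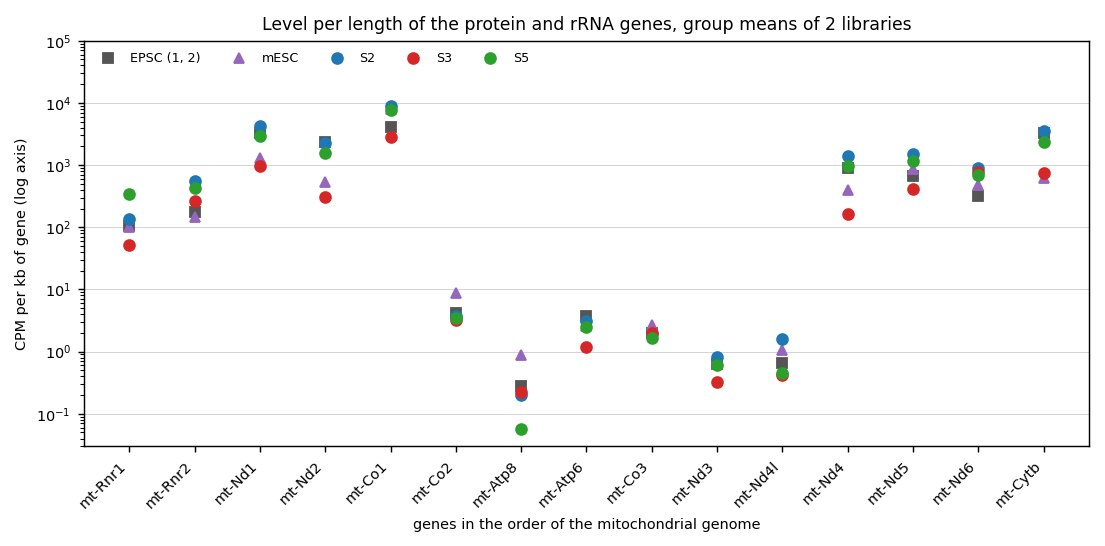
Level per length of the 13 protein and 2 rRNA genes in 5 groups, each point the mean of 2 libraries in CPM per kb of gene on a log axis, with genes in genome order. The 6 protein genes from mt-Co2 to mt-Nd4l lie below 10 CPM per kb in all 5 groups, while the other 7 lie above 100.

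The 13 protein genes together took 0.728 to 3.35% of a library's counts, with a median of 2.03%. The rRNA genes took 0.0297 to 0.108% and the tRNA genes 0.000213 to 0.00757%. Selection by poly(A) leaves most rRNA and tRNA behind, so these last shares are not levels of the RNAs in the cell. The groups with the highest protein gene shares were S2 at 2.91 ± 0.19% and S3 without CD1530 at 2.81%, and S3 was lowest at 0.792 ± 0.091%. The next lowest group was S5 without Activin A at 1.57%, and no library outside S3 was below 1.49%.

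**Figure D2:**
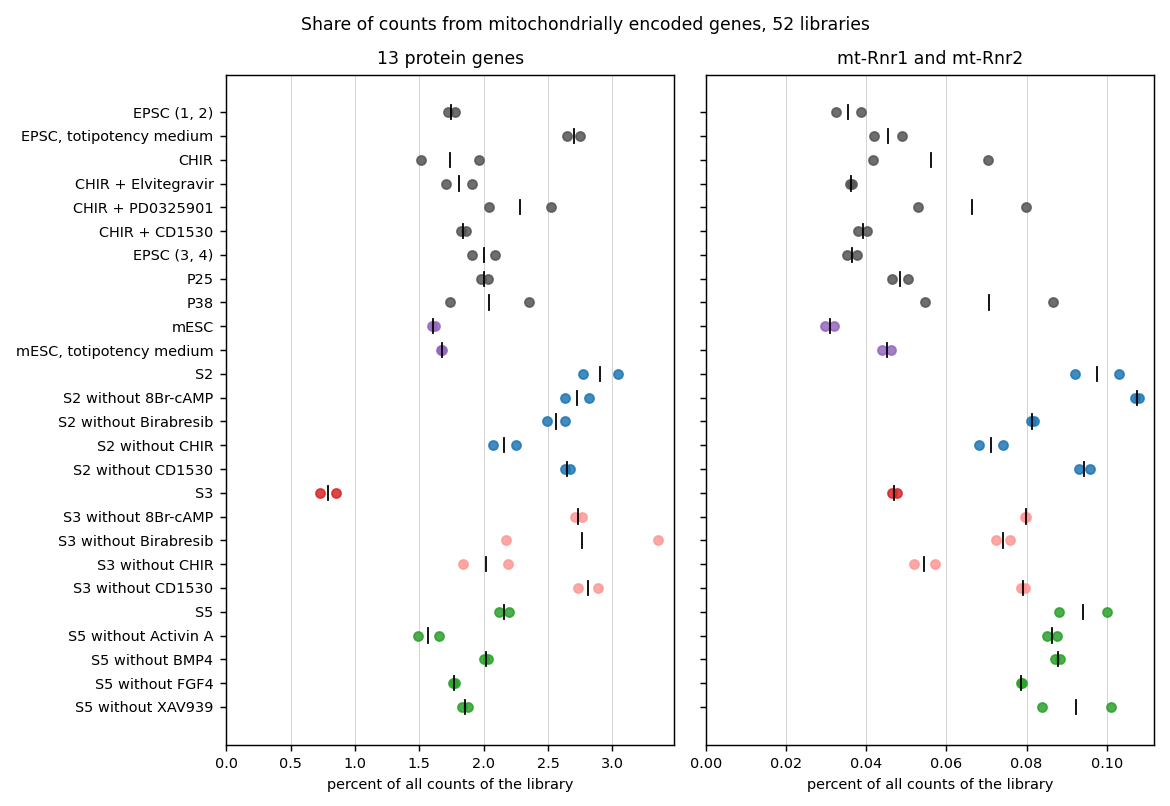
Share of all counts taken by the 13 protein genes (left) and by mt-Rnr1 and mt-Rnr2 (right) in percent, 1 point per library with a bar at the group mean. Both S3 libraries (0.728 and 0.856%) lie below all the other 50 libraries on the left.

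From S2 to S3 the counts of most well counted mitochondrial genes fell, together with both rRNA genes. Of the 13 protein genes 6 fell and none rose, where a gene is said to rise or fall if its adjusted p was below 0.05 and its change at least 2-fold, and 5.28% of all tested genes did so in either direction. The median of the 13 log2 fold changes was -1.68, against 0.0 over all tested genes. The 6 that fell are the plus-strand genes that were well counted. The seventh well counted gene, mt-Nd6 on the minus strand, was not called.

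The complex I gene mt-Nd4 was at 2032 and 1818 CPM in S2 and at 249 and 208 CPM in S3. It fell 8.42-fold (log2 fold change -3.07, SE 0.23, adjusted p 4.2e-12). The level of mt-Nd2 was 2521 and 2157 CPM in S2 and 345 and 284 CPM in S3, a fall of 7.43-fold (log2 -2.89, SE 0.18, adjusted p 2.3e-14). For both genes the S3 libraries lay far below every other library of the series, the next lowest being mESC library 1 at 544 CPM for mt-Nd4 and at 547 CPM for mt-Nd2.

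The complex III gene mt-Cytb was at 4213 and 3792 CPM in S2 and at 930 and 752 CPM in S3, and fell 4.76-fold (log2 -2.25, SE 0.23, adjusted p 3.7e-09). The level of mt-Nd1 was 4371 and 3820 CPM against 1014 and 827 CPM, a fall of 4.45-fold (log2 -2.15, SE 0.21, adjusted p 1e-09). For mt-Nd5 it was 2730 and 2776 CPM against 796 and 738 CPM, a fall of 3.59-fold (log2 -1.84, SE 0.15, adjusted p 3.6e-11). In none of the 3 genes did the S2 and S3 libraries overlap, and only for mt-Cytb was another group of the series, mESCs, as low as S3.

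The complex IV gene mt-Co1 fell least of the 6, from 14760 and 13250 CPM in S2 to 4764 and 3979 CPM in S3, which is 3.2-fold (log2 -1.68, SE 0.12, adjusted p 1.9e-12). By contrast mt-Nd6 was at 447 and 474 CPM in S2 and at 420 and 388 CPM in S3 (log2 -0.19, SE 0.14, adjusted p 0.38). Its count per 100 counts of the 6 plus-strand genes therefore went from 1.46 and 1.72 in S2 to 5.19 and 5.71 in S3, the 2 highest values of the 52 libraries. The other 50 ran from 0.893 to at most 2.62. The same ratio was 1.87 to 2.26 as the group mean in the 4 S3 groups that lacked an agent.

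The 2 genes meet tail to tail, as the ends of mt-Nd5 (chrM:13506-13565, plus strand) and mt-Nd6 (chrM:13552-13611, minus strand) show, each written 5′ to 3′ on its own strand with the 14 shared bases in capitals.
mt-Nd5: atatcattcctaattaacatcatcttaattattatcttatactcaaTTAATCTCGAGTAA
mt-Nd6: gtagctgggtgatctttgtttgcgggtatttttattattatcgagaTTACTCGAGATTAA
The library protocol in the labels names no step that marks strand, and the sources used here do not give the strand setting of the counting. Reads from mt-Nd6 and from any RNA of the opposite strand over the same bases therefore cannot be told apart.

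Of the 6 low protein genes none passed the test between S2 and S3, with log2 fold changes from -1.90 for mt-Nd4l (SE 1.1, adjusted p 0.26) to 0.11 for mt-Atp8 (SE 1.5). The nearest to a call was mt-Atp6, at 2.32 and 1.95 CPM in S2 and at 0.951 and 0.67 CPM in S3 (log2 -1.40, SE 0.51, adjusted p 0.053). The level of mt-Co3 was 1.55 and 1.49 CPM in S2 and 1.37 and 1.72 CPM in S3.

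Both rRNA genes also fell from S2 to S3. The small-subunit rRNA gene mt-Rnr1 was at 130 and 126 CPM in S2 and at 53.7 and 43.6 CPM in S3 (log2 -1.39, SE 0.14, adjusted p 3.7e-09). The large-subunit gene mt-Rnr2 was at 921 and 809 CPM against 406 and 426 CPM (log2 -1.05, SE 0.18, adjusted p 3e-05), and its change was -0.96 without S2 library 1. Of the 13 tested tRNA genes 2 fell. The level of mt-Tp, which carries proline and lies on the minus strand, was 15.3 and 11.2 CPM in S2 and 2.39 and 1.83 CPM in S3 (log2 -2.65, SE 0.22, adjusted p 3.6e-11). The count of mt-Tn summed over the 2 libraries was 10 in S2 and 0 in S3.

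**Figure D3:**
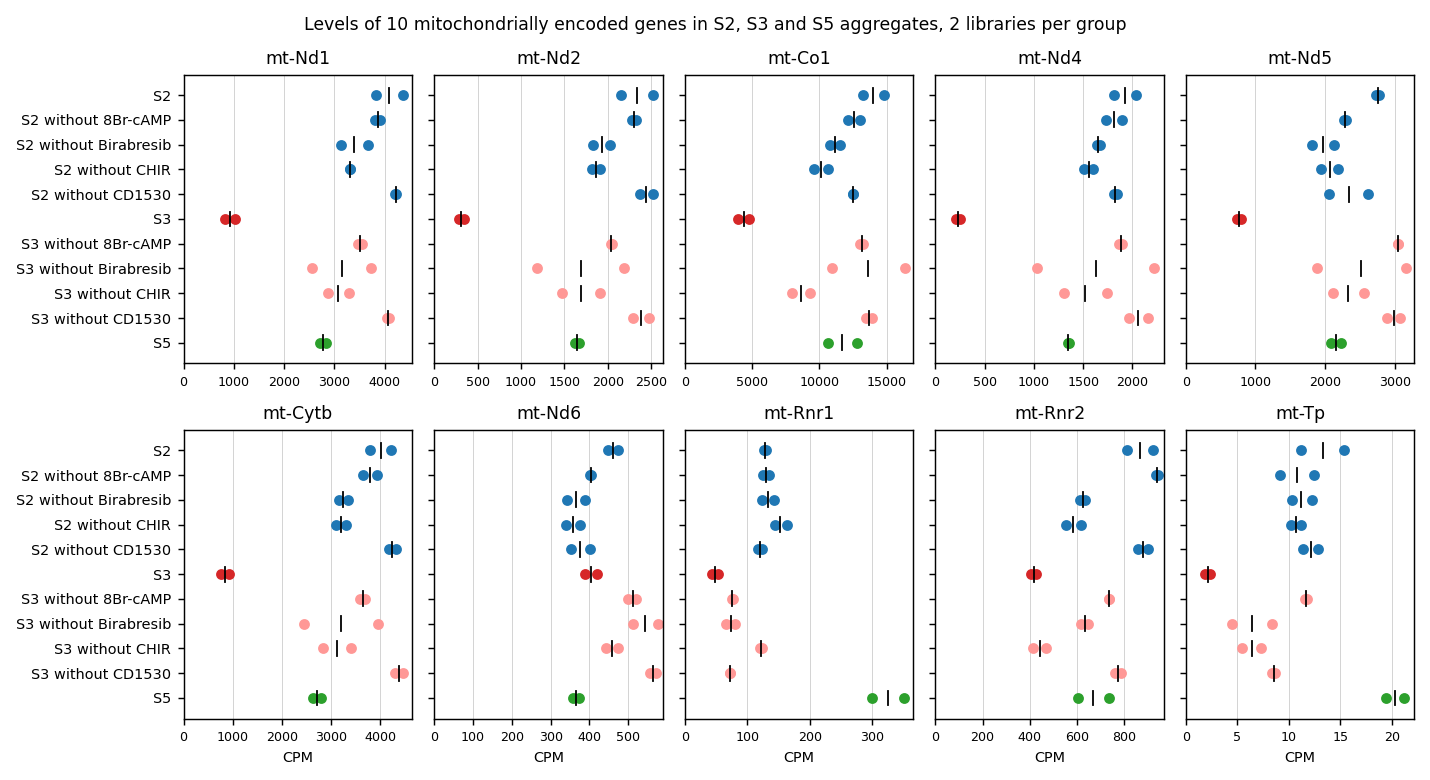
CPM of 10 mitochondrial genes in the S2, S3 and S5 groups, 1 point per library and a bar at the group mean, each panel with its own linear axis from 0. In the panels of mt-Nd1, mt-Nd2, mt-Co1, mt-Nd4, mt-Nd5 and mt-Cytb the 2 S3 libraries stand apart at the low end, and in that of mt-Nd6 they lie among the others.

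Several other measures were compared between S2 and S3. Total counts were 35.8 M and 36.9 M in S2 and 42.9 M and 44.2 M in S3. The summed level of the nuclear copies was 53.0 and 58.2 CPM in S2 and 35.7 and 36.2 CPM in S3, and that of nuclear RNAs without a poly(A) tail 1.77 and 2.2 CPM against 2.11 and 1.12 CPM. The feeder genes summed to 179 and 180 CPM in S2 and to 121 and 131 CPM in S3. All 4 primitive endoderm markers rose from S2 to S3, with Gata4 at 3.7 and 14.7 CPM, and all 3 markers of the 2-cell state fell, with Zscan4c at 33.2 and 4.45 CPM. The part of these in the fall of mitochondrial RNA was not tested. In bulk libraries fewer cells of a type and less RNA per cell cannot be told apart.

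Nuclear genes of the same pathways moved less. Of 22 tested genes for transcription and replication of mitochondrial DNA none was called between S2 and S3, and their median log2 fold change was 0.0. The mitochondrial RNA polymerase Polrmt was at 46.3 ± 0.96 CPM in S2 and 51.0 ± 1.1 CPM in S3 (log2 0.14, SE 0.11, adjusted p 0.45). Tfam, which packages mitochondrial DNA and starts its transcription, was at 81.8 ± 2.5 and 103 ± 3.8 CPM (log2 0.33, SE 0.10, adjusted p 0.02, under 2-fold). The replicative helicase Twnk was at 47.0 and 48.3 CPM.

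Of 24 tested genes for processing, stability and decay of mitochondrial RNA only Pde12 was called, a mitochondrial deadenylase at 5.42 ± 0.35 CPM in S2 and 2.29 ± 0.70 CPM in S3 (log2 -1.25, SE 0.21, adjusted p 3.9e-05). Lrpprc, which stabilises mitochondrial mRNAs, was at 197 and 244 CPM (log2 0.31, SE 0.11, adjusted p 0.041). Its partner Slirp was at 0.124 and 0.115 CPM, too low to compare. Of the 10 regulators of mitochondrial biogenesis 1 fell, and Ppargc1a was at 0.281 and 0.904 CPM.

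Of 79 tested nuclear subunits of complexes I, III, IV and ATP synthase 5 fell between S2 and S3 and none rose, a share close to the 5.28% called over all tested genes, with a median log2 fold change of -0.05. The complex I subunit Ndufb4 was at 26.7 ± 1.7 CPM in S2 and 7.50 ± 2.0 CPM in S3 (log2 -1.83, SE 0.17, adjusted p 7.5e-10). The ATP synthase ring subunit Atp5g2 was at 109 ± 1.6 and 30.9 ± 8.3 CPM (log2 -1.82, SE 0.21, adjusted p 5.4e-08). The complex IV subunit Cox7a2 was at 108 ± 3.3 and 32.8 ± 6.0 CPM (log2 -1.72, SE 0.17, adjusted p 2.8e-09). Ndufa12 (log2 -1.41) and Uqcrq of complex III (log2 -1.04) completed the 5. These are short mRNAs, so nuclear mRNAs were also grouped by length: among those below 600 bases the median log2 ratio of S3 to S2 was -0.01 (57 genes), with 8.77% at least 2-fold lower. From 600 to 1000 bases it was -0.10 (322 genes), with 6.52% at least 2-fold lower, and from 4000 bases up it was 0.0, with 0.939%.

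Between S3 and S5 the mitochondrial genes rose again. Of the 13 protein genes 6 rose, the same 6 that fell from S2 to S3, and none fell, where 22.6% of all tested genes were called in either direction. These 2 comparisons share the S3 libraries, so their values stand side by side and not as 2 independent results. The levels in S5 libraries 1 and 2 were 1343 and 1355 CPM for mt-Nd4 (log2 2.56, SE 0.23), and 1670 and 1619 CPM for mt-Nd2 (log2 2.39, SE 0.17). For mt-Cytb they were 2624 and 2784 CPM (log2 1.68, SE 0.23). The changes of mt-Nd1, mt-Nd5 and mt-Co1 were 1.59, 1.49 and 1.42 on the log2 scale, and the adjusted p of the 6 ran from 2.7e-14 to 8.6e-08. Once more mt-Nd6 did not pass, at 374 and 358 CPM (log2 -0.14, SE 0.14, adjusted p 0.42).

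The rRNA genes differed from each other between S3 and S5. The level of mt-Rnr1 was 300 and 350 CPM in S5, a rise of 6.68-fold (log2 2.74, SE 0.15, adjusted p 8.6e-18) to above its S2 level. The level of mt-Rnr2 was 602 and 736 CPM (log2 0.68, SE 0.17, adjusted p 0.0014, under 2-fold). The count of mt-Rnr1 per 100 counts of mt-Rnr2 was accordingly 13.2 and 10.2 in S3, 14.1 and 15.5 in S2 and 49.8 and 47.6 in S5. The level of mt-Tp was 19.4 and 21.2 CPM in S5 (log2 3.26, SE 0.22, adjusted p 3.4e-15), and mt-Tn, with 31 counts in S5 and 0 in S3, was also called.

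Among nuclear genes, Atp5g2 (log2 2.02), Cox7a2 (1.65) and Ndufb4 (1.5) also rose from S3 to S5, within 6 of 79 subunits that rose and 2 that fell, a smaller share than the 22.6% called over all tested genes. The 2 that fell are isoforms of complex IV subunits, Cox6b2 (log2 -1.84), known from testis, and Cox7a1 (log2 -1.34), known from muscle. The RNA-binding protein Grsf1 of mitochondrial RNA granules went from 457 ± 5.2 to 122 ± 2.1 CPM (log2 -1.91, adjusted p 4.7e-21). The coactivator Ppargc1b went from 0.846 ± 0.28 to 13.7 ± 2.7 CPM (log2 4.02, adjusted p 1.4e-16). Polrmt was at 40.7 and Tfam at 91.3 CPM in S5, neither called. Of the primitive endoderm markers, Gata4 was at 14.7 CPM in S3 and 232 CPM in S5, Gata6 at 43.8 and 120 CPM, Pdgfra at 41.6 and 81.4 CPM and Sox17 at 23.4 and 26.1 CPM, and their part in the rise was not tested.

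Leaving any 1 of 4 agents out of the medium on the S3 day gave aggregates with more counts of mitochondrial protein genes than S3. Without 8Br-cAMP, a cell-permeable analog of cyclic AMP, 7 of 13 protein genes were higher than in S3 and none lower, where 6.63% of all tested genes were called. Without Birabresib, an inhibitor of BET bromodomain proteins, the numbers were again 7 and 0 (6.21% of all genes). Without CHIR they were 5 and 0 (9.16%), and without CD1530, an agonist of retinoic acid receptor gamma, 7 and 0 (5.79%). All 4 comparisons share the 2 S3 libraries and so are not independent of each other. No library made without an agent was within the S3 range for the 6 well counted plus-strand genes.

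For mt-Nd4 the levels were 1897 and 1866 CPM without 8Br-cAMP, 1036 and 2219 CPM without Birabresib, 1303 and 1739 CPM without CHIR, and 2158 and 1965 CPM without CD1530, against 249 and 208 CPM in S3. The log2 fold changes were 3.04, 2.83, 2.73 and 3.17 in that order, each with an SE of 0.23. Those of mt-Nd2 were 2.7, 2.42, 2.42 and 2.92, with SEs of 0.17 to 0.18. Those of mt-Cytb were 2.11, 1.92, 1.89 and 2.38, each with an SE of 0.23. The lowest library for mt-Nd4, library 1 without Birabresib, lay well above both S3 libraries, and its group had the widest spread of the 4.

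For mt-Co1 the levels were 13270 and 13020 CPM without 8Br-cAMP, 10920 and 16350 CPM without Birabresib, 7959 and 9322 CPM without CHIR, and 13870 and 13450 CPM without CD1530. The log2 fold changes were 1.59, 1.64, 0.98 and 1.64, each with an SE of 0.12, so without CHIR the gene stayed just under the 2-fold threshold (adjusted p 4e-08). The changes of mt-Nd1 were 1.93, 1.77, 1.74 and 2.14, and those of mt-Nd5 1.99, 1.71, 1.60 and 1.96, all called. The changes of mt-Nd6 were 0.34, 0.43, 0.18 and 0.48, with adjusted p of 0.073, 0.022, 0.38 and 0.0092, all under 2-fold. The low gene mt-Atp6 was called without 8Br-cAMP, without Birabresib and without CD1530 (log2 1.58, 1.53 and 1.63), at 0.81 ± 0.2 CPM in S3. Each of these 3 calls was lost when either S3 library was left out.

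The rRNA genes followed less closely. The level of mt-Rnr1 was 76.6 and 75.9 CPM without 8Br-cAMP, 66.7 and 80.8 CPM without Birabresib and 72.4 and 72.4 CPM without CD1530, none 2-fold above S3. Without CHIR it was 120 and 123 CPM and rose (log2 1.32, SE 0.14, adjusted p 2.5e-09). The level of mt-Rnr2 was lowest without CHIR, at 414 and 470 CPM, which was close to the 406 and 426 CPM of S3 (log2 0.09, SE 0.17, adjusted p 0.8). It was higher, but by less than 2-fold, without 8Br-cAMP (736 and 734 CPM), without Birabresib (617 and 648 CPM) and without CD1530 (761 and 786 CPM). The tRNA gene mt-Tp rose in all 4 comparisons (log2 2.47, 1.62, 1.60 and 2.02). The gene mt-Tn, at 0 counts in S3, was called without Birabresib (9 counts over 2 libraries), without CHIR (8) and without CD1530 (13), but not without 8Br-cAMP (5).

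Of the 5 nuclear subunits that fell from S2 to S3, 3 were higher than in S3 whichever agent was left out, a comparison that rests on the same S3 libraries. Ndufb4 was called in all 4 comparisons (log2 1.55 without 8Br-cAMP, 1.41 without Birabresib, 1.57 without CHIR and 1.84 without CD1530). Cox7a2 was called too (1.52, 1.16, 1.44 and 1.66), as was Atp5g2 (1.76, 1.48, 1.5 and 1.61). Ndufa12 was called without 8Br-cAMP and without CD1530 only (1.38 and 1.23), and Uqcrq in none of the 4. Of the 79 subunits 5, 3, 3 and 4 rose, beside 6.63, 6.21, 9.16 and 5.79% of all tested genes called in either direction, and the median log2 fold change of the 79 was -0.03, -0.16, -0.02 and 0.11. Polrmt, Tfam, Twnk and Lrpprc were not called in any of the 4, with the largest change in Lrpprc without Birabresib (log2 -0.49).

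On the S2 day the same omissions gave no call among the protein genes. None of the 13 protein genes was called without 8Br-cAMP (1.92% of all tested genes called), Birabresib (2.98%), CHIR (5.07%) or CD1530 (2.33%). At an unadjusted p below 0.05 the numbers were 0, 3, 3 and 1, and DESeq2 also called 0 in each. The largest change of a well counted gene was that of mt-Nd5 without Birabresib, from 2730 and 2776 CPM to 2127 and 1805 CPM (log2 -0.49, SE 0.15, adjusted p 0.032). It was followed by mt-Co1 without CHIR, at 10600 and 9586 CPM (log2 -0.47, SE 0.12, adjusted p 0.0044). The rRNA gene mt-Rnr2 was at 615 and 554 CPM without CHIR against 921 and 809 CPM in S2 (log2 -0.57, SE 0.17, adjusted p 0.022).

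The difference between the 2 days was tested as a contrast of its own, which was added after the data had been seen. It subtracts the effect of an omission in S2 from its effect in S3. Of the 13 protein genes 6 were called in each of the 4 contrasts, all higher, where 1.9% of all tested genes were called for 8Br-cAMP, 0.87% for Birabresib, 2.43% for CHIR and 0.962% for CD1530. The called genes were mt-Nd1, mt-Nd2, mt-Co1, mt-Nd4, mt-Nd5 and mt-Cytb every time, and for mt-Nd4 the difference was 3.13, 3.05, 3.04 and 3.25 on the log2 scale, each with an SE of 0.31. All 4 contrasts hold the S3 and the S2 libraries in common. For mt-Nd6 the difference was 0.53 to 0.77, under 2-fold.

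**Figure D4:**
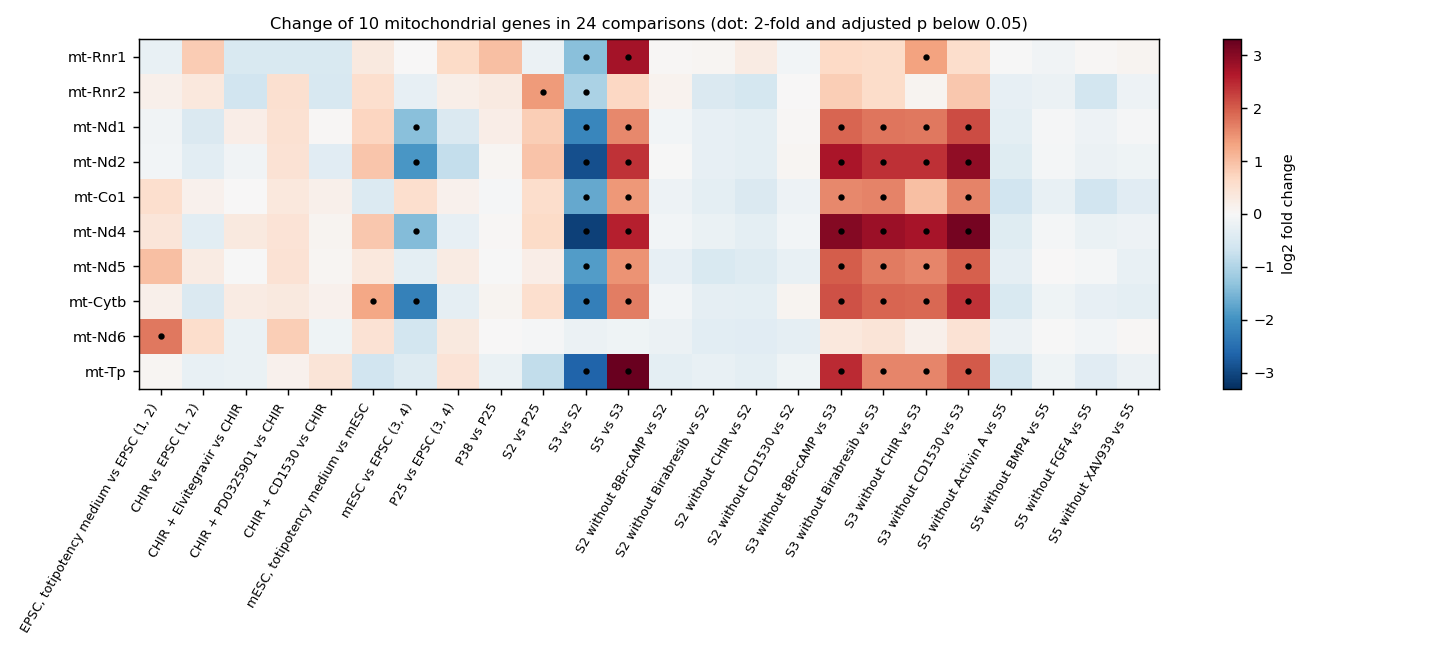
Log2 fold change of 10 mitochondrial genes (rows) in 24 comparisons (columns), red higher and blue lower in the first-named group, with a dot where the adjusted p is below 0.05 and the change at least 2-fold. The column of S3 against S2 is blue in every row but that of mt-Nd6, which is faint, and the columns of S5 and of the S3 omissions against S3 are red in the rows of mt-Nd1, mt-Nd2, mt-Co1, mt-Nd4, mt-Nd5 and mt-Cytb.

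In S5 the omissions gave 2 calls among the protein genes, both in low genes. Without BMP4 (0.0559% of all tested genes called) and without XAV 939, a tankyrase inhibitor (2.14%), 0 of 13 protein genes were called, with 1 each at an unadjusted p below 0.05 and 0 by DESeq2. Without Activin A (1.12%) 1 of 13 was called, mt-Nd4l, with 455 counts in library 1 and 3 counts in library 2, where the next highest count in any other library was 41. Without that library its log2 fold change was -0.78 in place of 5.32. Without FGF4 (4.65%) the low gene mt-Co3 fell (log2 -1.36, SE 0.48, adjusted p 0.049), a call that was lost on leaving out any 1 library.

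The well counted gene that moved most in S5 was mt-Co1. It was at 10610 and 12800 CPM in S5, at 7636 and 7421 CPM without Activin A (log2 -0.64, SE 0.12, adjusted p 0.00062) and at 7565 and 7690 CPM without FGF4 (log2 -0.62, SE 0.12, adjusted p 0.00021). All 4 omission libraries lay below both S5 libraries, and neither change reached 2-fold. The level of mt-Rnr2 without FGF4 was 446 and 431 CPM against 602 and 736 CPM (log2 -0.61, SE 0.17, adjusted p 0.013), while mt-Rnr1 was at 316 and 347 CPM against 300 and 350 CPM.

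In EPSCs, totipotency medium for 2 days moved mt-Nd6 more than any other well counted gene. Against EPSC libraries 1 and 2, 1 of 13 protein genes rose and none fell, where 27.8% of all tested genes were called. The level of mt-Nd6 was 158 and 179 CPM in EPSCs and 563 and 569 CPM in S1, 3.36-fold higher (log2 1.75, SE 0.14, adjusted p 2.1e-13). The adjoining plus-strand gene mt-Nd5 was at 1175 and 1284 CPM and at 2363 and 2538 CPM, at the 2-fold threshold but under it (log2 1.00, SE 0.15, adjusted p 4.8e-07). The level of mt-Co1 was 6363 and 6405 CPM against 9352 and 9280 CPM (log2 0.55, SE 0.12, adjusted p 0.0002). The genes mt-Nd1, mt-Nd2 and mt-Cytb had log2 fold changes of -0.11, -0.08 and 0.18 (adjusted p 0.77, 0.80 and 0.59).

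The choice of EPSC libraries bears on this result. In EPSC libraries 3 and 4 mt-Nd6 was at 395 and 366 CPM, and against these its log2 fold change was 0.57, which was not called. Both sets of untreated cells carry the same label, and their mates were counted differently. For S1 against EPSC libraries 1 and 2, 27.8% of all tested genes were called, 4673 higher and 2295 lower. Of 22 transcription and replication genes 5 fell and none rose, a share near that over all tested genes. Among the 5 were Mgme1 (log2 -1.75), Twnk (-1.14) and Polrmt (60.3 to 29.8 CPM, log2 -1.02, adjusted p 5e-10). Of 24 RNA processing genes 8 fell, with Lrpprc at 261 ± 8.0 CPM in EPSCs and 109 ± 0.99 CPM in S1 (log2 -1.25, adjusted p 1.8e-12). Of 79 nuclear subunits 11 fell and 2 rose, a smaller share than the 27.8% called over all tested genes. Their median log2 fold change was -0.62, and those that fell included Atp5a1 of ATP synthase (1389 to 642 CPM) and Uqcrc1 of complex III (284 to 130 CPM).

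With CHIR alone 3 of 13 protein genes rose against EPSC libraries 1 and 2, where 18.7% of all tested genes were called, and all 3 were low genes. The levels in CHIR libraries 1 and 2 were 4.4 and 13.0 CPM for mt-Co2, 2.47 and 11.0 CPM for mt-Atp6 and 1.82 and 6.08 CPM for mt-Co3. In EPSCs mt-Co2 was at 2.93 and 2.88 CPM. The calls rested on CHIR library 2, and without it 0 of 13 were called, with log2 fold changes of 0.60 for mt-Co2, -0.02 for mt-Atp6 and 0.21 for mt-Co3. The summed level of the 6 low genes was 31.2 CPM in that library and 34.4 CPM in library 2 of CHIR with PD0325901, and at most 14.6 CPM in the other 50.

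These 2 libraries stood apart in other ways too. In CHIR library 2 mt-Cytb was at 1601 CPM against 3752 CPM in library 1, and mt-Nd1 at 1563 against 2962 CPM. In library 2 of CHIR with PD0325901 mt-Cytb was at 2395 CPM against 4318 CPM in library 1. The level of mt-Co1 differed less, at 7376 and 6721 CPM with CHIR. With CHIR and CD1530 against CHIR the same 3 low genes fell (mt-Atp6 log2 -1.92, mt-Co2 -1.44, mt-Co3 -1.06, with 16.7% of all genes called), and without CHIR library 2 their changes were -0.49, -0.47 and 0.03. Adding Elvitegravir, an inhibitor of HIV integrase, to CHIR gave 0 of 13 calls (0.00798% of all genes), with 4 at an unadjusted p below 0.05 and 0 by DESeq2. Adding PD0325901, a MEK inhibitor, gave 0 as well (4.51%), with 6 at an unadjusted p below 0.05 and 0 by DESeq2, and the nearest was mt-Nd6 at 418 and 475 CPM against 241 and 264 CPM (log2 0.82, SE 0.14, adjusted p 2.9e-05).

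After long passage in totipotency medium no protein gene differed by the 2-fold rule from EPSC libraries 3 and 4. In P25 0 of 13 were called (18.7% of all tested genes), with 3 at an unadjusted p below 0.05 and 0 by DESeq2. The largest change of a well counted gene was mt-Nd2, at 1207 and 1242 CPM against 2227 and 2012 CPM (log2 -0.79, SE 0.16, adjusted p 0.00015). The feeder genes summed to 1165 and 1156 CPM in P25 and to 580 and 586 CPM in these EPSCs, and their part was not tested. Against EPSC libraries 1 and 2 mt-Nd2 was called (log2 -1.01), and so was mt-Nd6 (log2 1.5, at 485 and 468 CPM in P25). Between P38 and P25 0 of 13 were called (0.339%), with 0 at an unadjusted p below 0.05 and 0 by DESeq2. There mt-Rnr1 was at 230 and 354 CPM in P38 and 155 and 140 CPM in P25 (log2 0.99, SE 0.14, adjusted p 2.8e-05), just under 2-fold.

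From P25 to S2 again 0 of 13 protein genes were called (16.1% of all tested genes), with 5 at an unadjusted p below 0.05 and 0 by DESeq2. The largest changes of well counted genes were mt-Nd2 at 0.93, mt-Nd1 at 0.82, mt-Nd4 at 0.63 and mt-Co1 at 0.59 on the log2 scale. The rRNA gene mt-Rnr2 rose from 334 and 314 CPM to 921 and 809 CPM (log2 1.41, SE 0.18, adjusted p 3.7e-08), and mt-Rnr1 did not pass at 155 and 140 against 130 and 126 CPM. The feeder genes summed to 1165 and 1156 CPM in P25 and to 179 and 180 CPM in S2, and their part in these differences was not tested. The labels do not say which passage of S1 cells the aggregates were made from.

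The mESCs had the most counts of mt-Co1 per count of mt-Cytb in the series. Their mt-Cytb was the lowest, close below S3 at 930 and 752 CPM, and their mt-Co1 was below that of S2 at 14760 and 13250 CPM. Against EPSC libraries 3 and 4, 4 of 13 protein genes were lower and 1 higher, where 19.6% of all tested genes were called. The level of mt-Cytb was 708 and 703 CPM in mESCs and 3526 and 3140 CPM in EPSCs (log2 -2.24, SE 0.23, adjusted p 3.4e-10). That of mt-Nd2 was 547 and 570 CPM against 2227 and 2012 CPM (log2 -1.92, SE 0.17, adjusted p 7.6e-12). The genes mt-Nd4 (log2 -1.43) and mt-Nd1 (log2 -1.39) were also lower. The level of mt-Co1 was 12790 and 12170 CPM against 8844 and 8134 CPM (log2 0.56, SE 0.12, adjusted p 0.00023), so that mt-Co1 had 18.1 and 17.3 times the counts of mt-Cytb in mESCs and 2.51 and 2.59 times in EPSC libraries 3 and 4.

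The gene that was higher was mt-Co2, one of the low genes (log2 2.10). Against EPSC libraries 1 and 2, which were counted in the same way as the mESCs, 5 genes were again called, with mt-Cytb at -2.40, mt-Nd2 at -2.14, mt-Nd1 at -1.36, mt-Nd4 at -1.17, mt-Co2 at 1.02 and mt-Co1 at 0.97 on the log2 scale, the last not called. The feeder genes summed to 2119 and 2022 CPM in mESCs, to 580 and 586 CPM in EPSC libraries 3 and 4 and to 163 and 148 CPM in EPSC libraries 1 and 2. The lines also differ in origin and in medium. The part of these in the difference was not tested. Of nuclear genes, Tfb2m, a transcription factor of mitochondrial DNA, was at 9.37 against 22.1 CPM (log2 -1.24) and Fastkd3, which acts on mitochondrial mRNAs, at 17.6 against 47.6 CPM (log2 -1.43), within 3 of 22 and 3 of 24 genes that were lower, beside the 19.6% called over all tested genes.

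In mESCs totipotency medium raised mt-Cytb. It went from 708 and 703 CPM to 1708 and 1705 CPM (log2 1.27, SE 0.22, adjusted p 1.2e-05) and was the 1 of 13 protein genes that rose, with none that fell and 22.5% of all tested genes called. The complex I genes mt-Nd2, mt-Nd4 and mt-Nd1 were higher by less than 2-fold: mt-Nd2 to 1063 and 1042 CPM (log2 0.91, SE 0.16, adjusted p 1.8e-05), mt-Nd4 to 1057 and 996 CPM (0.89, SE 0.22, adjusted p 0.00088) and mt-Nd1 to 2041 and 2004 CPM (0.72, SE 0.20, adjusted p 0.0032). The level of mt-Co1 was 9168 and 9136 CPM (log2 -0.45, SE 0.12, adjusted p 0.0023). The ratio of mt-Co1 to mt-Cytb counts was then 5.37 and 5.36. The feeder genes summed to 931 and 923 CPM in the treated mESCs, and their part was not tested.

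The responses of mESCs and EPSCs to the medium were compared directly, each against its own starting cells (EPSC libraries 1 and 2). Of 13 protein genes 1 was called higher and 1 lower in mESCs, where 18.7% of all tested genes were called. The response of mt-Cytb was 1.09 higher on the log2 scale in mESCs (SE 0.31, adjusted p 0.0055). That of mt-Nd6 was lower (log2 -1.28, SE 0.19, adjusted p 1.2e-06), from 241 and 255 CPM to 343 and 344 CPM in mESCs beside the larger change in EPSCs given above. The differences of mt-Nd2 (1.00) and mt-Co1 (-0.99) were just under 2-fold.

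A lower threshold of 1.5-fold, with the same adjusted p, moved the count of protein genes called by over 1.5 times in 8 comparisons. It called 2 of 13 for S1 against EPSCs, mt-Nd6 and mt-Nd5, where 38.7% of all tested genes were called, and 1 of 13 for PD0325901 with CHIR against CHIR, mt-Nd6 (7.34%). For totipotency medium in mESCs it called 4 of 13, mt-Cytb, mt-Nd2, mt-Nd4 and mt-Nd1 (31.7%). For P25 against EPSCs it called mt-Nd2 alone (27.8%), and for S2 against P25 it called mt-Nd2, mt-Nd1, mt-Nd4 and mt-Co1 (24.5%). It added mt-Co1 in S5 without Activin A (2.15%) and without FGF4 (9.16%). For the difference between the responses of mESCs and EPSCs it called 6 of 13 (27.5%), adding mt-Nd1, mt-Nd2, mt-Co1 and mt-Nd5.

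The tRNA genes were read apart, because their counts differed between the 6 libraries with mates counted once and the other 46. In the 6 libraries with mates counted once they took 0.00479 to 0.00757% of counts and 10 of the 22 had at least 10 counts in 2 or more libraries. In the other 46 they took 0.000213 to 0.00206%, and 4 of the 22 did. There mt-Tp made up 78 to 97% of all tRNA counts, against 28.7 to 39.4% in the 6. The counts of mt-Tl2 summed to 1747 over the 6 libraries and to 38 over the 46, and those of mt-Ts2 to 515 and 8. The sequences of these 3 genes, from the annotation, show how short they are beside a read of 100 bases: mt-Tp (chrM:15356-15422, minus strand), mt-Tl2 (chrM:11671-11741, plus strand) and mt-Ts2 (chrM:11613-11671, plus strand).
mt-Tp: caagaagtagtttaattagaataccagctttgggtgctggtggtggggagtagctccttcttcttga
mt-Tl2: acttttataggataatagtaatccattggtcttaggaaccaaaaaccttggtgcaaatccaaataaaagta
mt-Ts2: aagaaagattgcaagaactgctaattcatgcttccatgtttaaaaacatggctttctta

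Between groups counted differently the tRNA genes changed together: 10 of 13 tested were lower in mESCs than in EPSC libraries 3 and 4, and 12 of 13 lower in S2 than in P25. Neither can be told apart from the counting or from anything else in which these libraries differ, and the cause was not tested. Where the counting was the same, calls beyond those of mt-Tp and mt-Tn given above were few: mt-Te in S1 against EPSC libraries 1 and 2 (147 against 9 counts over 2 libraries, log2 2.76, SE 0.76, adjusted p 0.0027), and mt-Te and mt-Tc with CHIR (33 against 9 and 18 against 2 counts), and mt-Te in the difference between the responses of mESCs and EPSCs (log2 -3.34, SE 1.1, adjusted p 0.019). With CHIR most of these counts came from library 2, at 0.152 and 0.914 CPM of mt-Te and 0.108 and 0.457 CPM of mt-Tc in libraries 1 and 2, against 0.111 and 0.0985 CPM of mt-Te in EPSCs. The level of mt-Tp, the tRNA gene with most counts, ran from 1.83 CPM in S3 library 2 to 25.9 CPM in P25 library 1. Among libraries with mates counted separately it was highest in S5 and lowest in S3.

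**Figure D5:**
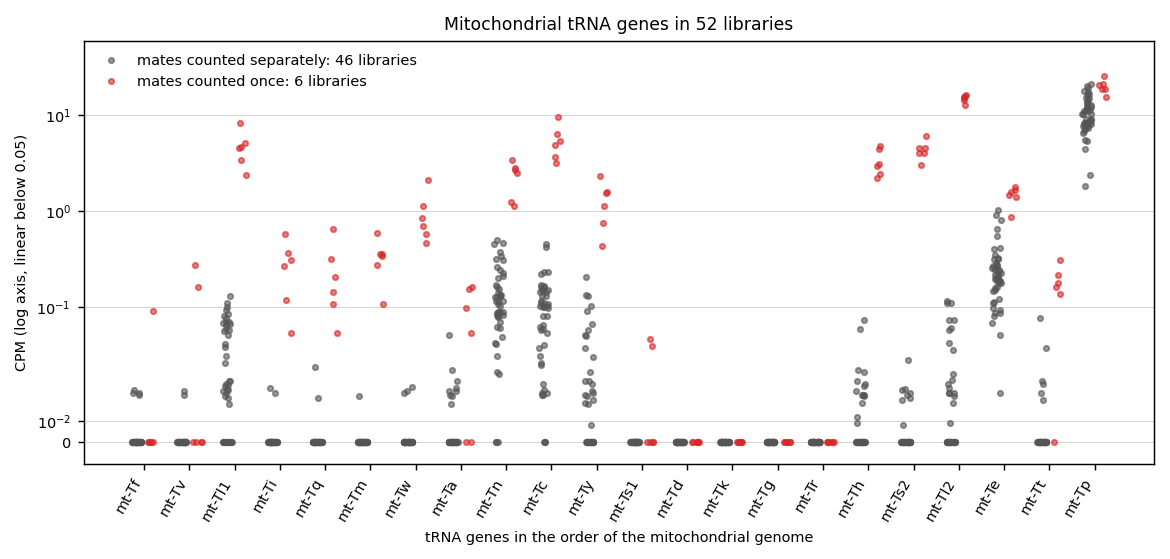
CPM of the 22 tRNA genes in the 46 libraries with mates counted separately (grey) and the 6 with mates counted once (red), in genome order, on an axis that is logarithmic above 0.05 and linear below. The red points of mt-Tl2, mt-Ts2 and mt-Th lie above all grey ones, and those of mt-Tp overlap the top of the grey range.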

How the data were processed

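Poly(A)-selected RNA was sequenced in 52 libraries as paired reads of 100 bases, per the labels' protocols. The authors deposited 1 table of raw read counts per gene. Per the submitters' processing notes, Trimmomatic 0.39, STAR 2.7.10b and featureCounts 2.0.6 were used with the build mm10. Which annotation was counted, with which strand setting, and how read pairs and reads with several matches were handled is not stated in the sources used here.

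Libraries were grouped by their treatment labels into 25 groups. Untreated EPSCs were fitted as 2 sets. Genes passing edgeR's filterByExpr (25056 of 55291) were fitted over all 52 libraries with edgeR 4.0.16 (quasi-likelihood test, TMM scaling, 1 mean per group). Adjusted p-values are Benjamini-Hochberg values over all 25056 genes, and SE is the log2 fold change divided by the square root of F. A gene was called at an adjusted p below 0.05 and a change of at least 2-fold. CPM values are TMM-scaled, and shares are percentages of all counts. Total counts were 16.6 M to 108 M, and their number limits the precision of low genes. The labels do not say that replicates came from separate cultures, so p-values measure only the spread between these samples, which may be technical. That spread is 1 estimate per gene shared by all groups, so an SE is not the spread within the groups compared. On data simulated for S3 against S2 (25056 genes), 100% of 4-fold changes and 39% of 2-fold changes were called. The 2-fold changes lie at the threshold of the call itself, and 86% of them had an adjusted p below 0.05. Changes were placed only in genes above a minimum count in S2, and the fit was given the simulated spread. These shares therefore do not measure how well changes of real genes, or of genes with few counts, are found.

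The members and the gene lists were chosen with earlier results of these data known. The 13 protein and 2 rRNA genes could be named in every comparison. Of tRNA genes and of each nuclear list at most 4 called genes were named per comparison, the latter at 5 CPM or more, and Polrmt, Tfam, Lrpprc, Slirp, Twnk and Ppargc1a could always be named. Alternatives were DESeq2 1.42.0, another normalization, no filter, a 1.5-fold threshold, a fit on fewer groups, halved counts, other EPSC libraries, a replicate block and leaving out each library. Sequences were read from GENCODE M21 transcripts on mm10.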

Additional observations from a re-analysis of the deposited data

Results flagged for a closer look

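The effect of leaving out an agent differed between the S3 day and the S2 day, by a test of the difference itself, in every case on the same 2 S3 and 2 S2 libraries, so the 4 agents are not independent. All values are log2 differences (effect in S3 minus effect in S2). For 8Br-cAMP they were 2.02 for mt-Nd1, 2.72 for mt-Nd2, 1.74 for mt-Co1, 3.13 for mt-Nd4, 2.26 for mt-Nd5, 2.19 for mt-Cytb and 2.78 for mt-Tp. For Birabresib they were 2.04 for mt-Nd1, 2.7 for mt-Nd2, 1.97 for mt-Co1, 3.05 for mt-Nd4, 2.20 for mt-Nd5, 2.23 for mt-Cytb, 1.08 for mt-Rnr2 and 1.86 for mt-Tp. The call of mt-Rnr2 was lost without S3 library 1 (1.04, adjusted p 0.053), S3 library 2 (1.11, adjusted p 0.052), library 2 of S3 without Birabresib (1.04, adjusted p 0.074) or S2 library 1 (0.98, adjusted p 0.08), and with total counts in place of TMM (1.0 after rounding, under the 2-fold threshold).

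For CHIR they were 2.05 for mt-Nd1, 2.75 for mt-Nd2, 1.46 for mt-Co1, 3.04 for mt-Nd4, 2.02 for mt-Nd5, 2.22 for mt-Cytb, 1.06 for mt-Rnr1 and 1.91 for mt-Tp. That of mt-Rnr1 was under 2-fold without S3 library 2 (0.92) and without library 1 of S2 without CHIR (0.97). For CD1530 they were 2.10 for mt-Nd1, 2.86 for mt-Nd2, 1.81 for mt-Co1, 3.25 for mt-Nd4, 2.20 for mt-Nd5, 2.30 for mt-Cytb and 2.15 for mt-Tp.

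The response to totipotency medium differed between mESCs and EPSCs, by the same kind of test, for mt-Cytb (1.09 higher in mESCs on the log2 scale) and for mt-Nd6 (-1.28). With total counts in place of TMM the first was 0.88 and no longer called, and with all 4 EPSC libraries pooled the second was -0.58 and no longer called. The second rests on EPSC libraries 1 and 2, where mt-Nd6 was at 158 and 179 CPM against 395 and 366 CPM in EPSC libraries 3 and 4.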

How the results depend on the processing

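For S3 against S2 the calls of mt-Nd1, mt-Nd2, mt-Co1, mt-Nd4, mt-Nd5, mt-Cytb, mt-Rnr1 and mt-Tp were kept in all 12 alternatives, with mt-Nd4 between -3.21 and -2.95 and mt-Co1 between -1.82 and -1.56 on the log2 scale. Over all comparisons, 5162 of 5293 single-gene values kept their call or their lack of one, 49 lost the call and 77 gained it. The other 5 were called in the main edgeR fit and changed sign. Changes of sign in genes not called either way count among the 5162. Among these, mt-Nd6 for CHIR was 0.59 against EPSC libraries 1 and 2 and -0.59 against libraries 3 and 4, under 2-fold both times. Low genes, the EPSC libraries used and single libraries of 2 limit the rest, and the causes were not tested beyond what each alternative changes. Some alternatives (the 7 well counted genes, the EPSC choices and the fits without library 2 of CHIR and of CHIR with PD0325901) were chosen after seeing the data.

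The 5 changes of sign among called genes were mt-Atp6 for CHIR against EPSCs (-0.02) and mt-Co3 for CHIR with CD1530 against CHIR (0.03), each without CHIR replicate 2 and also without library 2 of both CHIR and PD0325901, and mt-Nd4l in S5 without Activin A (-0.78 without its replicate 1). Leaving out the other library of those groups gave 2.13, -1.71 and 6.31 for the 3 genes.

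At a 1.5-fold threshold the protein genes called were 2 for S1 against EPSCs, 1 for PD0325901 against CHIR, 4 for totipotency medium in mESCs, 1 for P25 against EPSCs, 4 for S2 against P25, 2 in S5 without Activin A, 2 without FGF4 and 6 for the difference between mESC and EPSC responses.

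Among the 7 well counted genes 0 were called for CHIR against EPSCs, CD1530 against CHIR, and S5 without Activin A or FGF4. Their median log2 fold change was -0.36 for CHIR, 0.0 for Elvitegravir, 0.06 for CD1530, 0.72 for totipotency medium in mESCs, -1.39 for mESCs against EPSCs, -0.26 for P25, -2.15 for S3 against S2 and 1.59 for S5 against S3. It was 1.99, 1.74 and 2.14 for S3 without 8Br-cAMP, CHIR and CD1530, 0.48 for the difference of responses, and 2.19 and 2.20 for the differences between days for 8Br-cAMP and CD1530.

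Without a low-count filter 2 genes were called for S1, 2 for Elvitegravir and 4 for the difference of responses. With DESeq2's size factors in edgeR (RLE) 2 were called for S1 and 0 for S5 without FGF4, and by DESeq2 2 for S1. With total counts in place of TMM the numbers were 4 for S1 (median 0.68) and 0 for S5 without FGF4, and the median difference of responses was -0.13. With counts halved where mates had been counted separately the medians were 0.43 for CHIR, -0.02 for mESCs against EPSCs, 1.27 for S5, 1.76 for S3 without 8Br-cAMP and 0.27 for the difference of responses, and 0 genes were called in S5 without FGF4.

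Fitted on fewer groups, 1 gene was called for CHIR (median 0.42), 1 for CD1530, 0 for S5 without Activin A and 4 for the difference of responses, with medians of 0.02 for mESCs against EPSCs, 1.41 for S5, 1.76 for S3 without 8Br-cAMP and 1.36 without CHIR. With the 4 EPSC libraries pooled, 2 were called for S1 and 1 for the difference of responses (median -0.29), with medians of -0.08 for CHIR, 0.0 for mESCs and -0.38 for P25. Against EPSC libraries 1 and 2, 2 were called for P25 (median -0.44). Against EPSC libraries 3 and 4, 3 were called for S1, and the median for CHIR was -0.14. Without library 2 of CHIR and of CHIR with PD0325901, 0 were called for CHIR (median 0.21) and 0 for CD1530.

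Over 22 comparisons the deviations of same-numbered libraries correlated above 0.1 in 1, CHIR with PD0325901 against CHIR (r 0.432), whose second libraries both stand apart, and r was -0.031 to 0.0444 in the others. The numbers were therefore not taken as pairs. With a replicate block 2 genes were called for Elvitegravir and 0 for S5 without Activin A, and no other count of protein genes moved by over 1.5 times. For mESCs and P25 against EPSC libraries 3 and 4 no block could be fitted, because these share no numbers.

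Leaving out each library in turn gave the following lowest and highest values. Counts of protein genes called were 1 to 2 for S1, 0 to 5 for CHIR, 0 to 4 for Elvitegravir, 0 to 2 for PD0325901, 0 to 3 for CD1530, 0 to 1 for S2 against P25, 0 to 1 for S5 without Activin A, 0 to 0 without FGF4 and 2 to 4 for the difference of responses. Medians were 0.21 to 0.51 for CHIR, -0.22 to 0.01 for Elvitegravir, -0.35 to -0.20 for CD1530, 0.38 to 0.72 for totipotency medium in mESCs, -0.36 to 0.52 for mESCs against EPSCs, -0.14 to 0.28 for P25, -0.20 to 0.32 for P38, 1.13 to 1.35 for S5 and -0.59 to -0.30 for S5 without Activin A. For S3 without 8Br-cAMP, Birabresib, CHIR and CD1530 they were 1.60 to 1.94, 1.01 to 2.02, 0.74 to 1.73 and 1.70 to 2.00. For the differences between days, in the same order, they were 1.69 to 2.07, 1.65 to 2.53, 1.42 to 2.14 and 1.99 to 2.19.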
